A study of Mus musculus with 29 samples.

Results

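The enzymes that write, copy and remove DNA methylation were followed at the RNA level in sorted mouse blood stem and progenitor cells. The 9 genes were chosen by name from 30025 in the expression table. They are Dnmt1 and Uhrf1 (maintenance), Dnmt3a and Dnmt3b (de novo methylation), Tet1, Tet2 and Tet3 (oxidation of methylcytosine), and Idh1 and Idh2, which make the 2-oxoglutarate that the Tet enzymes consume. No expression value entered the choice of these genes, although earlier results of the same data were known.

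Methyl groups on cytosine are copied onto the new DNA strand after replication by Dnmt1, which Uhrf1 brings to hemimethylated sites, while Dnmt3a and Dnmt3b methylate sites that carried no mark. The Tet enzymes oxidise methylcytosine with oxygen and 2-oxoglutarate, after which the mark is diluted by replication or removed by base excision repair. DNMT3A, TET2, IDH1 and IDH2 are mutated in human myelodysplastic syndrome and acute myeloid leukaemia, and loss of Dnmt3a or Tet2 in mouse stem cells is known to favour self-renewal over differentiation.

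RNA-Seq libraries came from 10 C57BL/6J mice, 5 WT and 5 carrying the 5A3 deletion on 1 of their chromosomes (5A3+/del), at 12.42 to 13.85 weeks of age and without any treatment. Each mouse gave HSC sorted by high or low CD150 and MPP without it, as separate libraries. Every group holds 5 separate mice, apart from 5A3+/del CD150neg MPP with 4, which makes 29 libraries. The cell type label of the CD150neg samples reads HSC, whereas the sorting protocol calls these cells MPP. The deletion lies between Fbxl13 and Srpk2, was made with Cre in embryonic stem cells, and is inherited through the germ line, so that every cell of a 5A3+/del mouse carries it and an effect seen in a sorted cell can originate elsewhere in the animal. The groups of a genotype share mice, and the 3 populations of a mouse are not independent of each other.

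Between 21229490 and 38797569 fragments per library, with a median of 26967107, underlie the values. For the 9 enzymes this gave from 279 fragments (Idh1, in its lowest library) to 9103 (Tet1, in its highest). The counting error that follows was at most 5.99% for Idh1, 4.24% for Uhrf1 and 3.20% for Idh2. It covers counting alone, since PCR duplicates of the amplified cDNA cannot be told from separate molecules. Levels are given as normalised FPKM, fragments scaled by exon union and library total after quantile normalisation. Differences are given as log2 differences of FPKM + 1, a scale on which genes near 0 appear to differ less than they do. All 9 genes were among the 15409 that reached an FPKM of 1 in 4 libraries or more, and limma was fitted to all of these genes at once.

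Genes of the deleted interval separated the labelled genotypes in all 29 libraries. Normalised FPKM of Mll5 ranged from 37.2 to 47.9 in WT and from 19.7 to 27.7 in 5A3+/del CD150hi HSC. Its ranges were 38.9 to 50.9 and 22.5 to 28.9 in CD150lo HSC, and in CD150neg MPP 47.0 to 55.9 and 23.6 to 29.7. Dnajc2 had a normalised FPKM of at least 13.9 in every WT library and of at most 11.6 in every 5A3+/del library. For neither gene did the genotypes overlap in any population.

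The sorted populations followed their surface markers. Marker levels in this paragraph and the next are FPKM as deposited, before quantile normalisation. FPKM of Flt3, a receptor gained by multipotent progenitors, was 2.86 ± 0.782 (SD, n = 5) in WT CD150hi HSC, 29.4 ± 6.72 (n = 5) in WT CD150lo HSC and 51.4 ± 8.60 (n = 5) in WT CD150neg MPP. In 5A3+/del mice it was 3.29 ± 1.12 (n = 5), 30.0 ± 6.77 (n = 5) and 46.8 ± 9.70 (n = 4). Group means of Cd34 had the same order, with 33.8, 118 and 162 in WT and 48.8, 132 and 180 in 5A3+/del. The 4 B cell markers summed to at most 3.45 FPKM and the 4 T cell markers to at most 4.92 in any library. Cd3e was at 0 in all 5 libraries of 5A3+/del CD150hi HSC and reached 1.06 in WT CD150neg MPP. Sums reached 58.4 for 4 megakaryocyte markers, 27.3 for 5 erythroid markers and 27.3 for 3 macrophage markers.

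Granulocyte markers (Elane, Mpo, Ngp, S100a8, Ltf and Camp) were uneven among libraries. Their summed FPKM had a lowest, median and highest value of 33.2, 184 and 696 in WT CD150hi HSC, against 0.434, 11.9 and 70.7 in 5A3+/del CD150hi HSC. These values were 24.0, 130 and 930 in WT and 15.3, 97.7 and 236 in 5A3+/del CD150lo HSC, and in CD150neg MPP 16.3, 44.3 and 120 in WT and 6.91, 58.7 and 141 in 5A3+/del. S100a8 was the most abundant of the 6 in every group. The part of these transcripts in the levels of the methylation enzymes was not tested.

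A pair of libraries stood apart for several of the enzymes. The CD150hi library of WT mouse 2 held the lowest of all 29 levels for Uhrf1, Tet2 and Idh2. The CD150hi library of 5A3+/del mouse 1 held the lowest for Dnmt1, Dnmt3b and Tet1. These libraries also had the fewest genes above 0 of all 29, at 17504 (WT mouse 2) and 17346 (5A3+/del mouse 1). The next lowest number, in CD150neg MPP of WT mouse 1, was 18286. The part of this in the enzyme levels was not tested. Some differences of Idh2, Uhrf1, Tet3 and Dnmt3b are given below with and without these mice.

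All 9 enzymes were expressed in every library. Averaged over the 29 libraries, Dnmt1 had the highest level per exon length, with a normalised FPKM of 30.6 ± 4.69 (SD). Idh2 (22.6 ± 4.23) and Dnmt3b (21.7 ± 3.08) came next and were not separated, since Idh2 was the higher of the pair in 14 of 29 libraries. Tet1 (15.8 ± 2.47) lay below Dnmt3b in all 29. Tet3 (13.1 ± 2.31) and Tet2 (12.8 ± 1.74) were not separated, with Tet3 the higher in 15 of 29. Uhrf1 followed at 10.8 ± 2.55, below Tet2 in 23 of 29 libraries. Dnmt3a (7.87 ± 0.871) and Idh1 (7.70 ± 2.23) had the lowest levels and were not separated either, Dnmt3a being higher in 15 of 29. The order depends on the length that fragments are divided by. Per longest coding transcript Idh2 came first, above Dnmt1 in 20 of 29 libraries, and per longest coding sequence Dnmt3a came first and Dnmt1 was number 5.

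**Figure D1:**
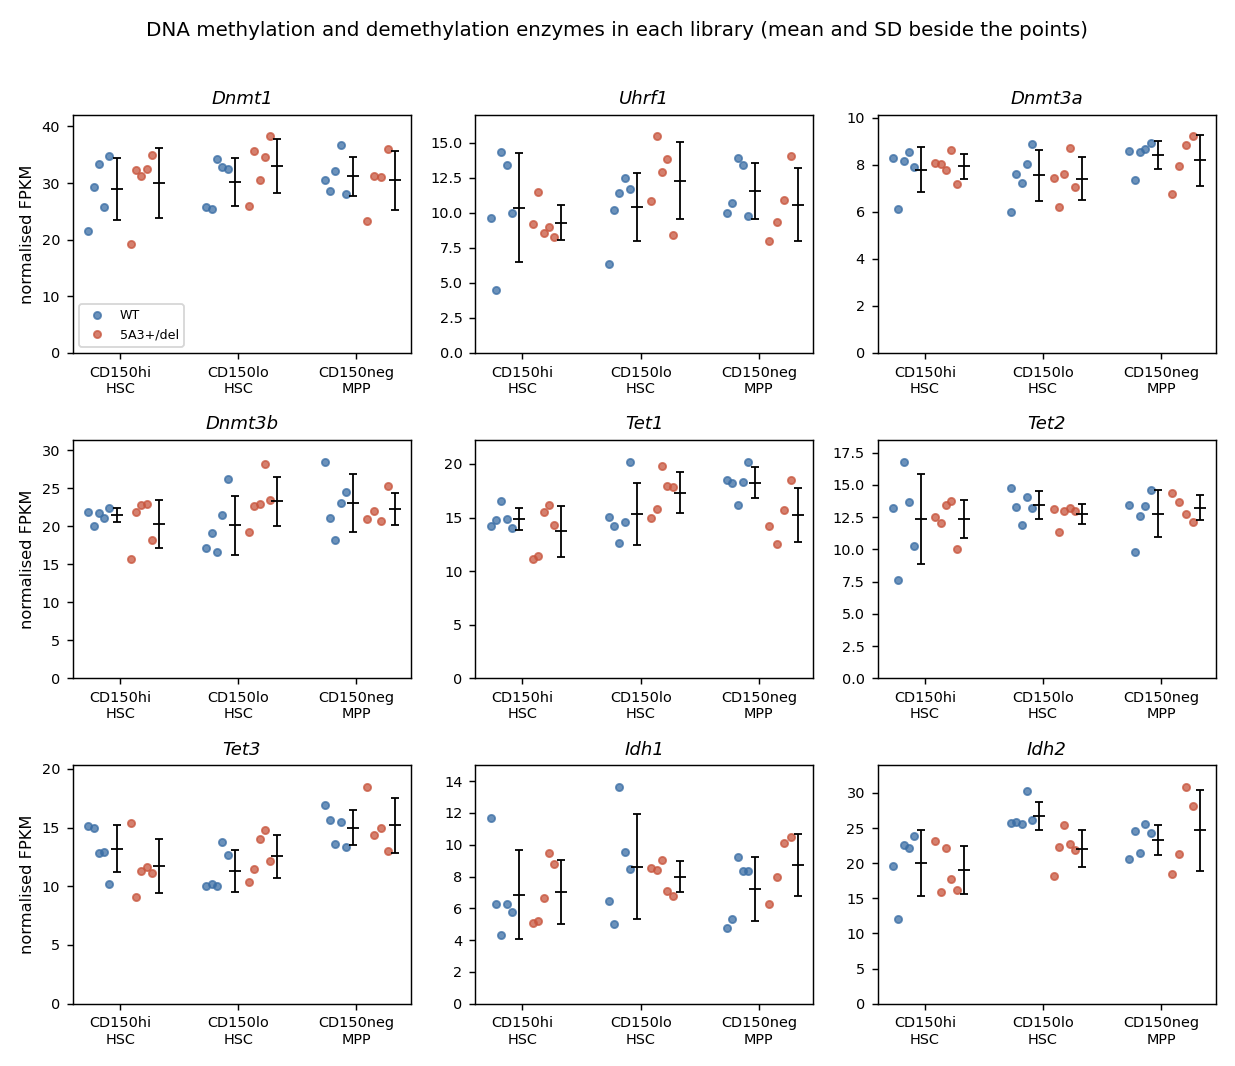
Normalised FPKM of each gene (vertical axis, from 0) in every library, by sorted population (horizontal axis) and genotype (blue, WT; red, 5A3+/del); each point is 1 library and the black bar is the mean ± SD of its group, with 5 libraries per group (4 in the last red group). The genotypes overlap in all panels, apart from Idh2 in CD150lo HSC, where the WT libraries lie from 25.5 to 30.3 and the 5A3+/del libraries from 18.1 to 25.4, a separation that the deposited FPKM do not show.

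Maintenance methylation showed no difference that passed the test in any comparison. Dnmt1, the methyltransferase that acts on newly replicated DNA, had group means of normalised FPKM of at most 33.0, in 5A3+/del CD150lo HSC, and a ratio of 1.14 between the highest and the lowest. Its libraries ranged from 19.2 to 38.2. The lowest level of each 5A3+/del population was that of mouse 1, at 19.2 (CD150hi), 26.0 (CD150lo) and 23.4 (CD150neg). The other 5A3+/del mice lay between 30.5 and 38.2 in all populations.

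Uhrf1, the reader of hemimethylated DNA that recruits Dnmt1, varied more. Its group means ran from a normalised FPKM of 9.30 in 5A3+/del CD150hi HSC to 12.3 in 5A3+/del CD150lo HSC. In WT CD150hi HSC the 5 libraries held 9.64, 4.53, 14.3, 13.4 and 9.98, a coefficient of variation of 37.2%, and in 5A3+/del CD150hi HSC 9.18, 11.5, 8.58, 8.99 and 8.30, or 13.5%. WT mouse 2 was the low library of the first set, and the WT range enclosed the whole 5A3+/del range. Within 5A3+/del mice, Uhrf1 was lower in CD150hi than in CD150lo HSC in 5 of 5 mice, with a log2 difference of -0.35 (95% interval -0.80 to 0.10, limma adjusted p = 0.546). In WT this was so in 2 of 5 mice, with a log2 difference of -0.06 (-0.51 to 0.39), which was 0.18 without WT mouse 2. Without that mouse the genotype difference of Uhrf1 in CD150hi HSC was -0.31 (limma adjusted p = 0.583), in place of -0.07.

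Of the de novo enzymes, Dnmt3a had the steadiest expression of the 9. Its group means of normalised FPKM stayed between 7.40 and 8.41, and its residual SD on the log2 scale, 0.15, was at percentile 2.90 of the 15409 genes, whose median was 0.33. Of its 18 annotated transcripts the longest coding one measures 9685 bases, but the union of their exons, by which FPKM is divided, measures 16642. In fragments, Dnmt3a exceeded Dnmt3b in 26 of 29 libraries. Per kilobase of exon union, or of the longest coding transcript, Dnmt3a exceeded Dnmt3b in 0 of 29, and per kilobase of the longest coding sequence in 23 of 29. The last of these divides fragments from untranslated exons by a length that leaves them out. Which of the pair has more transcripts per cell could therefore not be told from the table. In CD150hi HSC of WT mice, Dnmt3a was lower than in CD150neg MPP in 5 of 5 mice, with a log2 difference of -0.10 (95% interval -0.33 to 0.12). In 5A3+/del it was lower in 2 of 4 mice, with a log2 difference of -0.03.

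Dnmt3b was measured over an exon union of 5106 bases with 12 transcripts. In CD150hi HSC its normalised FPKM was 21.9, 20.1, 21.7, 21.0 and 22.4 in WT mice 1 to 5 and 15.7, 21.9, 22.8, 22.9 and 18.2 in 5A3+/del mice 1 to 5. In CD150lo HSC it was 17.1, 19.2, 16.6, 21.4 and 26.2 in WT and 19.2, 22.7, 22.9, 28.2 and 23.5 in 5A3+/del. In CD150neg MPP it was 28.5, 21.1, 18.2, 23.1 and 24.5 in WT and 21.0, 22.1, 20.7 and 25.3 in 5A3+/del mice 1 to 4. WT CD150hi HSC formed a narrow set, 3 of 5 WT CD150lo libraries lay below all of it, and 5A3+/del mouse 1 had the lowest level. In 5A3+/del mice Dnmt3b was lower in CD150hi than in CD150lo HSC in 5 of 5 mice, at a log2 difference of -0.19 (95% interval -0.47 to 0.08), and in WT in 2 of 5, at 0.10 (-0.17 to 0.38). The difference between these gaps was -0.30 (-0.69 to 0.09, limma adjusted p = 0.999). An antisense noncoding gene, 7530422B04Rik, overlaps Dnmt3b, and another, Gm10485, overlaps Dnmt3a, and the library kit does not mark the strand, so their fragments cannot be told apart where exons coincide.

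Among the Tet enzymes, Tet1 and Tet3 had their lowest estimates in HSC and higher ones in WT CD150neg MPP, whereas Tet2 hardly varied between groups. Tet1 carries a CXXC domain that binds unmethylated CpG. In CD150hi HSC its normalised FPKM was 14.2, 14.7, 16.5, 14.8 and 14.0 in WT mice and 11.1, 11.4, 15.5, 16.2 and 14.3 in 5A3+/del mice. In CD150lo HSC it was 15.0, 14.2, 12.6, 14.6 and 20.2 in WT and 15.0, 15.8, 19.8, 18.0 and 17.9 in 5A3+/del. In CD150neg MPP it was 18.5, 18.2, 16.2, 18.3 and 20.2 in WT and 14.2, 12.6, 15.7 and 18.5 in 5A3+/del. WT MPP were the high group, with 4 of 5 libraries above every WT CD150hi library, and the 5A3+/del libraries overlapped between all populations.

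In WT, Tet1 was lower in CD150hi HSC than in CD150neg MPP by a log2 difference of -0.28 (95% interval -0.54 to -0.02), with an unadjusted p of 0.0353 that did not survive adjustment (limma adjusted p = 0.186). In 5A3+/del mice the same log2 difference was -0.15 (-0.42 to 0.13). Over both genotypes 8 of 9 mice had less Tet1 in CD150hi HSC than in MPP. CD150hi HSC of 5A3+/del mice were lower in Tet1 than their CD150lo HSC in 5 of 5 mice, by a log2 difference of -0.32 (-0.58 to -0.06, limma adjusted p = 0.211), against 2 of 5 in WT at -0.03 (-0.29 to 0.23). The step from CD150lo HSC to CD150neg MPP ran in opposite directions, with a log2 difference, CD150lo minus CD150neg, of -0.25 (-0.51 to 0.01) in WT and 0.18 (-0.10 to 0.45) in 5A3+/del. The test of that change between genotypes gave 0.43 (0.05 to 0.81), with an unadjusted p of 0.0277 and a limma adjusted p of 0.934.

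Tet2, which lost the CXXC domain during evolution, had group means of normalised FPKM between 12.3 and 13.4, a ratio of 1.09 that was the smallest among the 9 genes. Its libraries ranged from 7.65, in WT mouse 2, to 16.8, in WT mouse 3, both of CD150hi HSC. The coefficient of variation was 28.3% in that group and at most 14.3% in the others.

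Tet3 was the only one of the 9 whose level was lower in CD150hi HSC than in CD150neg MPP in all 9 mice with both libraries. In CD150hi HSC its normalised FPKM was 15.1, 15.0, 12.8, 13.0 and 10.2 in WT mice and 15.4, 9.11, 11.3, 11.7 and 11.1 in 5A3+/del mice. In CD150lo HSC it was 10.0, 10.2, 10.0, 13.8 and 12.7 in WT and 10.3, 11.5, 14.1, 14.8 and 12.2 in 5A3+/del. In CD150neg MPP it was 16.9, 15.6, 13.6, 15.5 and 13.4 in WT and 18.5, 14.3, 15.0 and 13.0 in 5A3+/del. MPP were high in both genotypes, yet they overlapped with both HSC groups of the same genotype. Mouse 1 had the highest Tet3 level of its genotype in MPP and in CD150hi HSC, for WT and 5A3+/del alike.

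The log2 difference of Tet3, CD150hi minus CD150neg, was -0.18 (95% interval -0.46 to 0.10, limma adjusted p = 0.494) in WT and -0.35 (-0.65 to -0.06, limma adjusted p = 0.180) in 5A3+/del. Averaged over the genotypes it was -0.27 (-0.47 to -0.06, limma adjusted p = 0.0808). CD150lo HSC had less Tet3 than MPP in 8 of 9 mice, with a log2 difference of -0.38 (-0.66 to -0.10, limma adjusted p = 0.362) in WT and -0.26 (-0.55 to 0.04) in 5A3+/del, the latter -0.10 without 5A3+/del mouse 1. None of these passed the threshold of 0.05 after adjustment over all genes.

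The isocitrate dehydrogenases differed in level and stability. Idh1 makes 2-oxoglutarate in the cytosol and was the most variable of the 9, with a total coefficient of variation of 28.9%. Its libraries ranged from a normalised FPKM of 4.34 to 13.6 and its group means from 6.85 in WT CD150hi HSC to 8.71 in 5A3+/del CD150neg MPP. The highest and the lowest value of all were both WT mouse 3, at 13.6 in CD150lo HSC and 4.34 in CD150hi HSC. The interval of its genotype difference in CD150neg MPP, from -0.25 to 0.77 around a log2 difference of 0.26, was the widest reach of the 27 genotype intervals on the positive side.

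Idh2, the mitochondrial enzyme, separated WT CD150lo HSC from other groups, in part through the normalisation. In CD150hi HSC its normalised FPKM was 19.6, 12.0, 22.5, 22.1 and 23.9 in WT mice 1 to 5 and 23.1, 15.9, 22.2, 17.8 and 16.2 in 5A3+/del mice 1 to 5. In CD150lo HSC it was 25.8, 25.9, 25.5, 30.3 and 26.1 in WT and 18.1, 22.3, 25.4, 22.7 and 21.9 in 5A3+/del. In CD150neg MPP it was 20.6, 24.6, 21.5, 25.5 and 24.2 in WT and 18.4, 21.3, 30.8 and 28.2 in 5A3+/del. WT CD150lo HSC was the high group: its libraries lay above all WT CD150hi libraries, all 5A3+/del CD150lo libraries and, by a margin under the rounding of these values, all WT MPP libraries. In the deposited FPKM only the separation from WT CD150hi HSC held, with WT CD150lo libraries from 24.0 to 30.2 and WT CD150hi libraries up to 23.5. The 5A3+/del CD150lo libraries reached 25.0 and the WT MPP libraries 26.1 on that scale, and both overlapped with WT CD150lo HSC.

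In WT, Idh2 was lower in CD150hi than in CD150lo HSC in 5 of 5 mice, with a log2 difference of -0.43 (95% interval -0.76 to -0.11), an unadjusted p of 0.0111 and a limma adjusted p of 0.167. Without WT mouse 2 this log2 difference was -0.28, with an unadjusted p of 0.0806, so that its size depends on that mouse. In 5A3+/del mice the log2 difference was -0.21 (-0.54 to 0.11) and the direction held in 4 of 5, with mouse 1 as the exception, without which it was -0.35 (limma adjusted p = 0.415). Averaged over the genotypes it was -0.32 (-0.55 to -0.09) with a limma adjusted p of 0.0799. The mean of both genotypes was added after the data were seen, and without 5A3+/del mouse 1 it was -0.39 with a limma adjusted p of 0.0272, past the threshold, whereas without WT mouse 2 it was -0.25 with a limma adjusted p of 0.184.

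Against CD150neg MPP, Idh2 was lower in CD150hi HSC by a log2 difference of -0.24 (95% interval -0.56 to 0.09) in WT and -0.35 (-0.69 to -0.003) in 5A3+/del, the latter with a limma adjusted p of 0.290. Without 5A3+/del mouse 1 the 5A3+/del log2 difference of Idh2 was -0.54 (limma adjusted p = 0.0898), and without WT mouse 2 the WT one was -0.06 (limma adjusted p = 0.899). The average over genotypes was -0.29 (-0.53 to -0.06, limma adjusted p = 0.0986), and it was -0.39 with a limma adjusted p of 0.0237 without 5A3+/del mouse 1 and -0.20 with 0.254 without WT mouse 2. In bulk RNA from sorted cells, fewer cells with a high level and a lower level in every cell cannot be told apart, here and for each difference above.

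The deletion itself was compared first across the enzymes within each population, which asks whether a stem cell with 1 copy of the interval expresses them differently. By limma, 0 of the 9 had an adjusted p under 0.05 in CD150hi HSC, where 0.156% of all genes did, and 0 of 9 had an unadjusted p under 0.05, against 13.1% of all genes. In CD150lo HSC the counts were 0 of 9 against 0.0324% of all genes and, unadjusted, 0 of 9 against 6.87%. In CD150neg MPP they were 0 of 9 against 0.0454% and, unadjusted, 0 of 9 against 4.27%. With voom weights on fragment numbers the counts over all 27 pairs of gene and population were also 0 adjusted and 0 unadjusted. Under 24 alternatives of processing and samples, the unadjusted count reached at most 0 (CD150hi), 2 (CD150lo) and 1 (CD150neg). Without 5A3+/del mouse 1, Dnmt3b in CD150lo HSC had a log2 difference of 0.27, in place of 0.21. Its unadjusted limma p was then 0.0486 (limma adjusted p = 0.690).

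The intervals show how large a difference could have been missed. The median absolute log2 difference of the 9 genes was 0.06 (CD150hi), 0.14 (CD150lo) and 0.06 (CD150neg), beside 0.19, 0.15 and 0.14 over all genes tested. The 95% intervals reached from -0.52 to 0.54 in CD150hi HSC, from -0.59 to 0.67 in CD150lo HSC and from -0.61 to 0.77 in CD150neg MPP. Averaged over the 3 populations they lay within -0.28 and 0.37, and 0 of 9 passed the threshold adjusted or unadjusted, against 0.467% and 12.0% of all genes by limma, and 0 and 0 by voom. The averaged fit counts the libraries of a mouse as independent. Entered as a correlated block, these libraries gave averaged intervals that reached from -0.29 (Idh2) to 0.40 (Idh1). There too 0 of 9 passed by limma, adjusted or unadjusted. A p that misses the threshold does not show that the values did not differ.

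The estimates farthest from 0 were those of Idh2 in CD150lo HSC, at a log2 difference of -0.27 (95% interval -0.59 to 0.06, limma adjusted p = 0.838), Idh1 in CD150neg MPP and Tet1 in CD150neg MPP, at -0.25 (-0.53 to 0.02, limma adjusted p = 0.9998). Counting genes whose libraries did not overlap between genotypes gave 0 of 9 (CD150hi), 1 of 9 (Idh2, CD150lo) and 0 of 9 (CD150neg). Of all genes 2.58%, 1.63% and 1.51% did not overlap in the same comparisons. Idh2 overlapped between genotypes in the deposited FPKM.

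**Figure D2:**
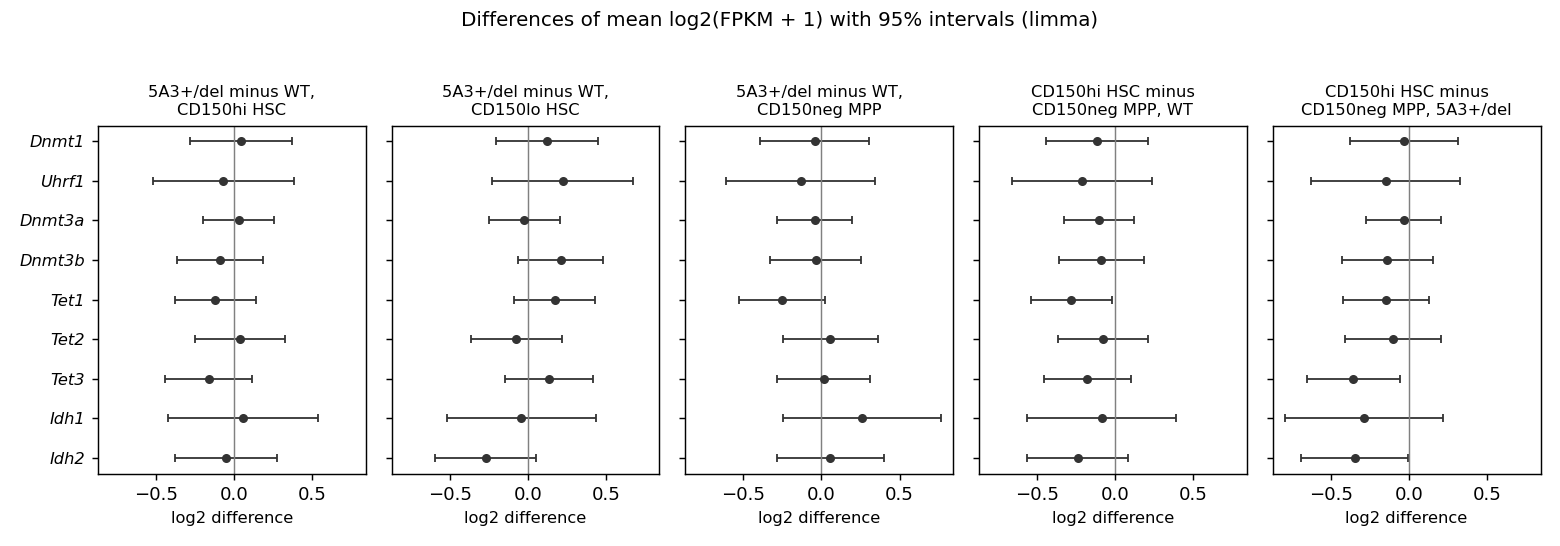
Log2 difference of each gene (horizontal axis, differences of mean log2(FPKM + 1) with 95% intervals from limma; 1 point for each of the 9 genes) between genotypes in each population and between CD150hi HSC and CD150neg MPP in each genotype. All 27 genotype intervals include 0, and all 9 estimates of CD150hi minus CD150neg are below 0 in both genotypes, with 1 interval in WT (Tet1) and 2 in 5A3+/del (Tet3 and Idh2) that do not reach 0.

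Between populations, the enzymes leaned towards lower levels in CD150hi HSC than in CD150neg MPP, without a call. All 9 estimates of CD150hi minus CD150neg were negative in WT and all 9 in 5A3+/del, where 50.9% and 50.6% of all genes were negative, and the medians over the 9 were log2 differences of -0.12 and -0.15 beside -0.01 and -0.00 over all genes. Mice did not follow for every gene, with Dnmt1 lower in 4 of 9 mice and Uhrf1 and Tet2 in 5 of 9. Leaving out a mouse turned the WT estimate positive for Uhrf1 (without WT mouse 2), Idh1 (without WT mouse 3) and Tet2 and Idh1 (without WT mouse 5), and the 5A3+/del estimate for Dnmt3a (without mouse 3) and Dnmt1 (without mouse 4).

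In WT, limma called 0 of 9 between CD150hi HSC and CD150neg MPP, against 10.0% of all genes, and 1 of 9 (Tet1) at an unadjusted p under 0.05, against 21.8%. In 5A3+/del it called 0 of 9 against 6.16%, and unadjusted 2 of 9 (Tet3 and Idh2) against 16.9%. Libraries did not overlap for 0 of 9 in WT and 0 of 9 in 5A3+/del, against 8.63% and 7.61% of all genes. By voom the adjusted counts were 0 in both genotypes and the unadjusted counts 0 in WT and 2 in 5A3+/del. Over the mean of both genotypes, 0 of 9 passed in limma against 13.2%, 3 of 9 (Tet1, Tet3 and Idh2) unadjusted against 24.9%, and 1 of 9 (Idh2, adjusted p = 0.0455) in voom. With the mouse as a block, Idh2 in 5A3+/del had an unadjusted p of 0.0652 (limma adjusted p = 0.316), which leaves 1 of 9 (Tet3) unadjusted there.

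Between CD150hi and CD150lo HSC, limma called 0 of 9 in WT, against 3.53% of all genes, and 1 of 9 (Idh2) unadjusted against 14.1%. In 5A3+/del it called 0 of 9 against 3.18%, and 1 of 9 (Tet1) unadjusted against 13.3%. Libraries did not overlap for 1 of 9 (Idh2) in WT and 0 of 9 in 5A3+/del, against 4.04% and 4.33% of all genes. By voom the counts were 0 adjusted and 1 unadjusted in each genotype. Over the mean of both genotypes, limma called 0 of 9 against 7.64%, with 1 of 9 (Idh2) unadjusted against 19.5%, and voom called 1 of 9 (Idh2, adjusted p = 0.0425). With the mouse as a block, Tet1 over both genotypes had an unadjusted p of 0.0301 (limma adjusted p = 0.177), which makes 2 of 9 (Tet1 and Idh2) unadjusted there.

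Between CD150lo HSC and CD150neg MPP, limma called 0 of 9 in WT, against 0.188% of all genes, and 1 of 9 (Tet3) unadjusted against 8.75%. In 5A3+/del it called 0 of 9 against 0.0389%, and 0 of 9 unadjusted against 4.95%. Libraries did not overlap for 1 of 9 (Idh2) in WT and 0 of 9 in 5A3+/del, against 2.26% and 1.95% of all genes. In the deposited FPKM these groups overlapped for Idh2, which was higher in CD150lo HSC in 4 of 5 WT mice, against 5 of 5 after normalisation. By voom the counts were 0 adjusted in both genotypes, with 1 unadjusted in WT and 0 in 5A3+/del. Over the mean of both genotypes, limma called 0 of 9 against 0.292%, with 1 of 9 (Tet3) unadjusted against 7.93%, and voom called 0 with 1 unadjusted. With the mouse as a block, Tet1 in WT had an unadjusted p of 0.0294 (limma adjusted p = 0.435), which makes 2 of 9 (Tet1 and Tet3) unadjusted there.

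Whether the deletion changed a gap between populations was tested by the difference of the gaps. For CD150hi minus CD150lo, limma called 0 of 9, against 0% of all genes, and unadjusted 0 of 9 against 3.98%. For CD150lo minus CD150neg it called 0 of 9 against 0%, and unadjusted 1 of 9 (Tet1) against 5.00%. For CD150hi minus CD150neg it called 0 of 9 against 0%, and unadjusted 0 of 9 against 7.96%. By voom the adjusted counts were 0 in each, and 1, 1 and 0 unadjusted. Under the 24 alternatives the unadjusted counts reached at most 2, 1 and 0. Without 5A3+/del mouse 1, Tet3 for CD150hi minus CD150lo was -0.46, in place of -0.30. Its unadjusted limma p was then 0.0172 (limma adjusted p = 0.9999). The intervals of the 9 genes in these tests were wide, from -0.93 to 0.77, from -0.995 to 1.01 and from -0.90 to 0.72 on the log2 scale.

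How the enzymes moved with each other was described over the 29 libraries, of which those of a mouse are not independent. Of the 36 pairs among the 9 genes 30 had a Pearson r above 0, with a median of 0.23. Dnmt3b and Tet1 had the highest value, with r = 0.66 and Spearman's rho = 0.67 on normalised log2 values over 29 libraries. Deviations from the group means gave r = 0.64, and r was 0.54 without the 2 libraries farthest from the median of Dnmt3b. Among 15407 genes Tet1 ranked 8 for likeness to Dnmt3b, and Dnmt3b ranked 40 for likeness to Tet1. Uhrf1 and Dnmt3a (r = 0.53, rho = 0.45) also had r = 0.64 on deviations from the group means, but r was 0.22 without the 2 farthest libraries. Uhrf1 and Idh2 had r = 0.52 and rho = 0.39, with r = 0.59 on deviations and r = 0.40 without the 2 farthest. The lowest value was that of Dnmt1 with Tet3, r = -0.25 and rho = -0.26.

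**Figure D3:**
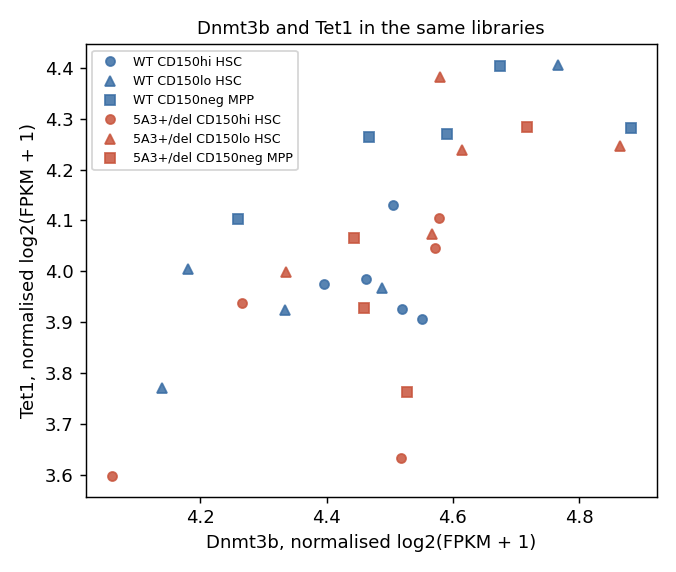
Normalised log2(FPKM + 1) of Dnmt3b (horizontal axis) and Tet1 (vertical axis) in the 29 libraries, each point 1 library, coloured by genotype and shaped by population. The points run from the lowest pair of values, in the CD150hi library of 5A3+/del mouse 1, upwards (r = 0.66), and the groups overlap.

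Because Dnmt3b and Tet1 had the highest correlation, the 250 bases before their annotated starts were compared. The sequences are from RefSeq (GRCm38.p6), where all 9 genes were matched, with 15 windows. Each was searched on both strands for a GC box (GGGCGG, in 32.7% of 32851 windows of this length), a CCAAT box (CCAAT, 33.8%) and E2F sites of the forms TTTCGCGC (0.256%) and TTTGGCGC (0.417%). The Dnmt3b window, chr2:153649199-153649448 on the plus strand, held 3 GC boxes, 0 CCAAT boxes and 21 CpG. The Tet1 window, chr10:62887325-62887574 on the minus strand, held 1 GC box, 0 CCAAT boxes and 15 CpG. Neither overlapped an exon of the mm9 annotation to which each was matched by its exact sequence. Capitals mark the GC boxes on either strand.
Dnmt3b: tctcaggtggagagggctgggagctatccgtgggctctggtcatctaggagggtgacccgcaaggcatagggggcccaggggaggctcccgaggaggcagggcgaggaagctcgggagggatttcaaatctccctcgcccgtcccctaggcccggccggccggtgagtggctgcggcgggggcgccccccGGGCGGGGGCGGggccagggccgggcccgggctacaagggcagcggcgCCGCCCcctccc
Tet1: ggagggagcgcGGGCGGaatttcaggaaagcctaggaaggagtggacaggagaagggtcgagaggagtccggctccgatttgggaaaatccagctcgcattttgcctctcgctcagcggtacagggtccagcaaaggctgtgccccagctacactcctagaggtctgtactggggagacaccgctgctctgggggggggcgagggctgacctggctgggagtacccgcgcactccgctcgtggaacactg

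Over all 15 windows of the 9 genes, 13 held a GC box, 7 a CCAAT box and 2 an E2F form, and their CpG count ran from 2 to 51 with a median of 18, beside a median of 6 over all windows. The 2 windows with an E2F form belonged to the maintenance pair. That of Uhrf1, chr17:56304063-56304312 on the plus strand, held TTTCGCGC at position -185 from the start, 3 GC boxes, 2 CCAAT boxes and 30 CpG, and is shown with this motif in capitals because Uhrf1 acts at replication. That of Dnmt1 held the same letters on the other strand and overlapped an annotated exon. A match of letters is a description of the sequence and not evidence of binding.
Uhrf1: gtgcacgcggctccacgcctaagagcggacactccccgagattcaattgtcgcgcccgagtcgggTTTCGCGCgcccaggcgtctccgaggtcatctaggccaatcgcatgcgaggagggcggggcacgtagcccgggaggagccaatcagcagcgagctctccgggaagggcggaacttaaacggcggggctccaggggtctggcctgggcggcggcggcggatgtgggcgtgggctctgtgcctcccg

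Maintenance methylation is coupled to DNA replication, so each enzyme was set beside 14 genes of S phase and mitosis over the 29 libraries. Dnmt1 had the highest median r with them, 0.54, and reached r = 0.76 with Ccna2, the cyclin of S phase. Its r was above 0 for 13 of the 14 and lowest with Cdk1, at -0.03. Cdk1 also gave the lowest r for Uhrf1 (-0.20), Dnmt3b (-0.39), Tet1 (-0.18) and Idh1 (0.07). The median r was 0.40 for Tet1, 0.33 for Uhrf1, 0.30 for Dnmt3b, 0.26 for Idh1 and 0.26 for Idh2. It was 0.12 for Dnmt3a, 0.06 for Tet2 and -0.06 for Tet3, and for each of the 9 the median over all genes tested lay within -0.01 and 0.01. The S phase and mitosis genes themselves had a median log2 difference, CD150hi minus CD150neg, of -0.25 in WT and -0.29 in 5A3+/del, and 3 and 4 of the 14 had an unadjusted p under 0.05 by limma, where 21.8% and 16.9% of all genes did. For CD150hi minus CD150lo their medians were -0.15 in WT and -0.31 in 5A3+/del, with 12 of 14 lower in each, and 0 and 3 of 14 at an unadjusted p under 0.05, against 14.1% and 13.3% of all genes. The part of cell cycle genes in the levels of the enzymes was not tested.

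The genes most like each enzyme over the 29 libraries came from varied functions. Dnmt1 was closest to the ribosomal protein gene Rpl4 (r = 0.79), then to Mthfd1l of mitochondrial folate metabolism (r = 0.77) and the histone chaperone gene Nap1l1 (r = 0.77). Uhrf1 was closest to Dmxl2 (r = 0.76), Ctcf (r = 0.72) and Clip1 (r = 0.71). Dnmt3a was closest to Atm, the kinase of the DNA break response (r = 0.77), followed by Usp24 (r = 0.70) and Gm11969 (r = 0.68). For Dnmt3b the closest were Atp5a1 (r = 0.75), Camk2g (r = 0.72) and Ofd1 (r = 0.69).

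Tet1 was closest to Cep110 (r = 0.78), Fbxo38 (r = 0.77) and Flna (r = 0.75). Tet2 was closest to Akap10 (r = 0.80), and then to Uhrf2, the paralogue of Uhrf1 (r = 0.75), and Cnot8 (r = 0.73). For Tet3 they were Mtap4 (r = 0.77), Sh3tc1 (r = 0.73) and 2810046L04Rik (r = 0.71). Idh1 was closest to Lin7c (r = 0.78), mt-Nd4l (r = 0.77) and Lamp2 (r = 0.74), and Idh2 to the proteasome gene Psmb5 (r = 0.77), Suds3 (r = 0.77) and Hpgds (r = 0.77). The highest of 15407 values is large by selection, and these are descriptions of likeness.

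Around the 9 enzymes, 80 further genes of the pathway were listed in 7 groups, and 75 of them passed the filter on low values. By limma, 0 of the 75 were called between genotypes in any population, with 11 (CD150hi), 4 (CD150lo) and 3 (CD150neg) at an unadjusted p under 0.05, against 13.1%, 6.87% and 4.27% of all genes, and 0 in each by voom. Between CD150hi HSC and CD150neg MPP 1 was called higher and 1 lower in WT, and 2 higher and 0 lower in 5A3+/del, of 75 in each, against 10.0% and 6.16% of all genes. Unadjusted, 10 and 15 of 75 passed there, against 21.8% and 16.9% of all genes, and voom called 2 and 1. Between CD150hi and CD150lo HSC 1 was called higher and 0 lower in WT and 0 in 5A3+/del, against 3.53% and 3.18% of all genes. Unadjusted, 3 and 8 of 75 passed there, against 14.1% and 13.3% of all genes, and voom called 1 and 0. Between CD150lo HSC and CD150neg MPP 0 were called in either genotype, with 4 and 0 unadjusted, against 8.75% and 4.95% of all genes, and 0 and 0 by voom.

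The calls fell mainly on base excision, which completes removal of the oxidised base, with 13 of 14 genes tested. Neil2, a glycosylase that acts on oxidised bases, was higher in WT CD150hi HSC, at a normalised FPKM of 2.04 ± 0.657 (SD, n = 5), than in CD150lo HSC (0.680 ± 0.556, n = 5) and CD150neg MPP (0.436 ± 0.273, n = 5). Its log2 differences were 0.89 (limma adjusted p = 0.0371) and 1.07 (limma adjusted p = 0.00399). Neil2 lay near the filter's FPKM of 1, with normalised levels of 1.17 to 2.96 in WT CD150hi and 0.0917 to 0.769 in WT CD150neg libraries. The group where it is high can carry it past the filter, so these calls are not independent of that selection. Smug1, a uracil glycosylase, was higher in 5A3+/del CD150hi HSC (6.19 ± 0.821, n = 5) than in 5A3+/del CD150neg MPP (3.41 ± 0.445, n = 4), by a log2 difference of 0.70 (limma adjusted p = 0.0492), whereas its WT means ran the other way, at 3.80 ± 1.85 (n = 5) and 4.76 ± 1.33 (n = 5). Parp1 was the most abundant of the group, at 24.8 ± 3.53 normalised FPKM over the 29 libraries.

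In the methyl donor cycle (13 of 13 tested), Mtr, the methionine synthase, was lower in WT CD150hi HSC (10.9 ± 2.72 normalised FPKM, n = 5) than in WT CD150neg MPP (15.8 ± 1.56, n = 5), by a log2 difference of -0.52 (limma adjusted p = 0.0267). Mat2a, which makes S-adenosylmethionine, had the highest level of this group, 123 ± 23.4. Among enzymes of 2-oxoglutarate and 2-hydroxyglutarate (15 of 15 tested), Glud1 was the most abundant, at 56.4 ± 8.48.

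The writers and maintenance partners (10 of 12 tested, Dnmt3l and Dppa3 below the filter), the methyl-CpG readers (8 of 8) and the Tet partners (2 of 4, Cxxc4 and Wt1 below the filter) held 0 calls by limma within a genotype or a population. At an unadjusted p under 0.05, CD150hi HSC against CD150neg MPP gave 1 and 2 writers, 2 and 1 readers and 0 and 0 Tet partners in WT and 5A3+/del, where 21.8% and 16.9% of all genes passed. Within a genotype or a population, the highest shares were those of 3 of 10 writers between CD150lo HSC and CD150neg MPP in WT, against 8.75% of all genes, and 3 of 8 readers between genotypes in CD150hi HSC, against 13.1%. Averaged over the populations 4 of 8 readers passed between genotypes, against 12.0% of all genes. The averaged fit counts the libraries of a mouse as independent. Estimates of the 8 readers ran both ways in it, with 5 higher and 3 lower in 5A3+/del. The most abundant writer or maintenance partner was Pcna, the replication clamp (60.4 ± 11.0 normalised FPKM), and the most abundant Tet partner Ogt, the glycosyltransferase that binds Tet2 and Tet3 (102 ± 14.3).

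Averaging over genotypes, which was added after the data were seen, brought further calls by limma. For CD150hi against CD150neg they were 5 of 75, against 13.2% of all genes, and for CD150hi against CD150lo 2 of 75, against 7.64%. Trim28 (log2 difference -0.33, adjusted p = 0.0447), Glud1 (-0.27, adjusted p = 0.0468) and Mcm6 (-0.40, adjusted p = 0.0398) were lower, and Neil2 (0.78, adjusted p = 0.00262) higher, in CD150hi HSC than in CD150neg MPP. Neil2 (0.69, adjusted p = 0.0106) and Lig3, the ligase of base excision (0.25, adjusted p = 0.0474), were higher in CD150hi than in CD150lo HSC. For Neil2 the limit set by its low level, given above, holds here too. Averaged over the populations, Tyms, the thymidylate synthase, was the 1 of 75 pathway genes called between genotypes, at a log2 difference of 0.39 (limma adjusted p = 0.0262), against 0.467% of all genes. That fit counts the libraries of a mouse as independent, and the call did not hold when they were entered as a correlated block (limma adjusted p = 0.0639). Mean normalised FPKM of Tyms per mouse ranged from 4.99 to 6.42 in WT and from 6.98 to 8.67 in 5A3+/del.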

How the data were processed

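The values are FPKM that the authors deposited, for 30025 genes in 29 libraries. The submitters' processing notes name Bowtie version 0.12.2, HTSeq and mm9. Libraries were grouped by genotype and cell type in the labels. Fragment numbers were recovered from FPKM and exon length, and at least 98.4% of low values per library were whole within a tolerance of 0.05.

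The 15409 genes that reached an FPKM of 1 in 4 libraries or more were quantile normalised on the scale log2(FPKM + 1). A single fit of 6 group means used limma 3.58.1 (R 4.3.3), with 12 contrasts, two-sided, and Benjamini-Hochberg adjustment over all genes at 0.05. Descriptions came from Python 3.11.15, pandas 2.3.3 and scipy 1.17.1. The steps were tested on simulated data. The 9 genes and the lists were chosen with earlier results of these data known.

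The text describes all 9 genes. From each pathway list it names genes with an adjusted p under 0.05, at most 6 per list and kind of contrast, and the most abundant gene. Not every gene that meets this rule is named. The 3 genes with the highest Pearson r over 29 libraries are given for each of the 9.

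A mouse code in the sample descriptions pairs the populations of a mouse. Deviations from group means correlated at a median of 0.0786 (-0.0418 to 0.235, 28 pairs) within a mouse and at -0.0250 (112 pairs) between mice of a genotype. The same number in both genotypes stands for different mice. Alternatives covered the pseudocount, filter, normalisation, prior, samples in the fit, blocks, covariates for age and Xist, and leaving out each mouse. Voom weights on recovered fragments (15139 genes), the libraries of a mouse as a correlated block and the 4 averaged contrasts were chosen after seeing the data.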

Additional observations from a re-analysis of the deposited data

Results flagged for a closer look

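In each group of 4 or 5 libraries the gap between the extreme library and its nearest neighbour was compared with the whole range, for each of the 9 genes. Of 54 such sets 7 held a library far from the others, where chance gives about 2.70. Values are normalised FPKM.

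In 5A3+/del CD150hi HSC, Dnmt1 was 19.2 in mouse 1 and 31.3 to 35.0 in the other libraries. Uhrf1 in the same group was 11.5 in mouse 2, above 8.30 to 9.18 in the others. Dnmt3a was low in WT mouse 2 in 2 populations, at 6.14 in CD150hi HSC (others 7.88 to 8.52) and 7.37 in CD150neg MPP (others 8.54 to 8.91). Tet2 was 11.4 in the CD150lo HSC of 5A3+/del mouse 2, below 13.0 to 13.2 in the others. Idh1 was 11.7 in the CD150hi HSC of WT mouse 1, above 4.34 to 6.28. Idh2 was 30.3 in the CD150lo HSC of WT mouse 4, above 25.5 to 26.1.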

How the results depend on the processing

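Over the 12 contrasts, 0 of 9 genes passed the threshold in limma under any of 24 alternatives, voom included. With the mouse as a replicate block, 0 of 9 were called in the population contrasts and their changes between genotypes, and with the replicate number as a block 0 of 9 between genotypes. With the libraries of a mouse as a correlated block (correlation 0.0793), 0 of 9 were called in all contrasts, those averaged over groups included. Neither block changed a call at the adjusted threshold, but the mouse block moved unadjusted p over 0.05 for Idh2 (CD150hi minus CD150neg, 5A3+/del, to 0.0652) and under it for Tet1 (CD150lo minus CD150neg, WT, to 0.0294, and CD150hi minus CD150lo, mean of both genotypes, to 0.0301). Of 2580 values of a gene in a contrast under an alternative, 88 had the opposite sign, 0 of them for a difference with an unadjusted p under 0.05, and 0 had an adjusted p under 0.05. Requiring an FPKM of at least 10 in a library left 8 of the 9, without Dnmt3a.

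Calls appeared in the contrasts averaged over genotypes. For CD150hi minus CD150lo the count was 1 (Idh2) with age as a covariate (limma adjusted p = 0.0476) and 1 (Idh2) with voom (adjusted p = 0.0425). For CD150hi minus CD150neg it was 1 (Idh2) with voom (adjusted p = 0.0455). Leaving out a mouse gave 0 to 1 in both, the 1 being Idh2 without 5A3+/del mouse 1. The cause was not tested.

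Counts over all genes moved more. Genotype calls ranged from 0 to 100 in CD150hi HSC (24 in the fit reported), from 0 to 78 in CD150lo HSC (5) and from 0 to 8 in CD150neg MPP (7). Calls between CD150lo and CD150neg ranged from 0 to 72 in WT (29) and from 0 to 8 in 5A3+/del (6), with 1 and 2 under the mouse block. CD150hi against CD150lo gave 291 to 650 calls in WT (544) and 292 to 602 in 5A3+/del (490), and CD150hi against CD150neg 1022 to 1779 (1548) and 449 to 1067 (949). Changes of these gaps between genotypes gave at most 1, 12 and 2 calls (0 in each). Averaged over the populations, genotype calls ranged from 15 to 194 (72), with 38 under the correlated block. With 4 or 5 libraries per group, differences of the 9 genes within their intervals could have been missed, and Idh1, at 279 to 810 fragments per library, had the largest counting error.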
